A study of Mus musculus with 8 samples.

Results

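The annexin and S100 genes, both families of calcium-regulated proteins, were followed in 4T1 cells, a mouse breast cancer cell line, when the DNA methyltransferase inhibitor decitabine was added to a Wnt agonist. Members were taken by MGI symbol: Anxa followed by a number, a symbol starting with S100a, or S100b, S100g, S100z or S100pbp. This gave 26 genes of the 27727 in the tables, namely 11 annexins, 14 S100 genes and S100pbp, which encodes a binding protein of an S100 family member. RNA sequencing compared 4 libraries of cells given SKL2001 overnight (Ctrl replicates 1 to 4) with 4 of cells given SKL2001 and decitabine overnight (Hypo replicates 2 to 5). All cells were WT by label and all received SKL2001, a small molecule that stabilizes β-catenin, so the comparison holds the effect of added decitabine and has no group without SKL2001. Decitabine is a cytidine analog that lowers DNA methylation in dividing cells. DNA methylation of these cultures was not analysed here.

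Library depth ranged from 27486245 to 39388394 reads assigned to genes. Levels below are normalized counts (reads divided by a size factor per library), and each difference is Hypo minus Ctrl on the deposited transformed, log2-like scale, tested with limma and called at an adjusted p below 0.05 over the 15746 genes whose normalized counts averaged 10 or more. Keratins and Cdh1 were abundant, and the 8 epithelial markers summed to 139300 to 156300 normalized counts in Ctrl and 128400 to 146000 in Hypo. Of these 8, Krt7, a simple-epithelium keratin, fell (1.46 times higher in Ctrl, limma adjusted p = 3.8e-04) and Epcam, an epithelial adhesion molecule, rose (1.23 times higher in Hypo, limma adjusted p = 3.6e-04). Of 5 tested myeloid markers 2 rose and their list summed to 591 to 843 in Ctrl and 1016 to 1223 in Hypo, with the neutrophil marker Ly6g at 0 to 4.59 in any library. Of 5 tested fibroblast markers 4 rose (list sums of 3330 to 3940 in Ctrl and 5365 to 5628 in Hypo), as did 2 of 3 tested endothelial markers (30.8 to 59.1 and 126 to 166), and their part in the results was not tested. Over all tested genes 14.1% were called higher and 8.75% lower. Ptprc and Pdgfrb, 1 of the risers in the myeloid and 1 in the fibroblast list, had a Ctrl mean under 10 and were tested only through their Hypo level. In bulk RNA a change in the share of cells that express a gene cannot be told apart from a change in RNA per cell. Ctrl replicate 3 stood apart: the mean of 12 integrated stress response genes, a list chosen after the data were seen, was 12.12 there on the transformed scale and 11.01 to 11.39 in the other Ctrl libraries, against 11.31 to 11.72 in Hypo. Results that rest on that library are given with and without it.

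Annexins bind acidic phospholipids when calcium rises and act in vesicle traffic, membrane repair and the control of inflammation. S100 proteins are EF-hand dimers that change shape on binding calcium and then grip target proteins, among them annexins. The best known pairs are annexin A2 with S100A10, which assembles plasminogen and its activators at the cell surface, and annexin A1 with S100A11, and several S100 proteins are known in breast cancer for their part in motility and invasion.

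Start-site sequences of 5 called members and of Anxa2 are shown first, because DNA methylation, which decitabine lowers, lies mostly at CG dinucleotides, and the members differed widely in how many they carry there. RefSeq windows of GRCm38.p6, from 250 bases before to 50 after an annotated start, matched 20 of the 26 members. Over 32851 such windows in the genome, 94.57% held at least 1 CG, with a median of 7 and quartiles of 3 and 20. The windows printed are those of S100a7a (chr3:90654052-90654351, plus strand) and S100a16 (chr3:90537004-90537303, plus strand), which rose, of Anxa1 (chr19:20390622-20390921, minus strand), Anxa8 (chr14:34085729-34086028, plus strand) and Anxa4 (chr6:86793535-86793834, minus strand), which fell, and of Anxa2 (chr9:69453433-69453732, plus strand), whose level was nearly equal in both groups. Each reads 5′ to 3′ on the gene's strand, with every CG in capitals.
S100a7a: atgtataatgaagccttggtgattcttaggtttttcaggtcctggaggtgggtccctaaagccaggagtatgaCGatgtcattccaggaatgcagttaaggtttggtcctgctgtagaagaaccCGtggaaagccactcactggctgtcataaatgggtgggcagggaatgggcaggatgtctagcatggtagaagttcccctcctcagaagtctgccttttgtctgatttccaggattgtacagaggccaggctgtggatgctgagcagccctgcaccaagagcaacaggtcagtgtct
S100a16: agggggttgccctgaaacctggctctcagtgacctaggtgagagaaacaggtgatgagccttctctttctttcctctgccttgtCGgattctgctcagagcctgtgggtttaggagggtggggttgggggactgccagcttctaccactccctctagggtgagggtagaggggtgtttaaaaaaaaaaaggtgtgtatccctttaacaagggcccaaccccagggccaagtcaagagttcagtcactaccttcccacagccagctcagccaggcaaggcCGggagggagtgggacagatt
Anxa1: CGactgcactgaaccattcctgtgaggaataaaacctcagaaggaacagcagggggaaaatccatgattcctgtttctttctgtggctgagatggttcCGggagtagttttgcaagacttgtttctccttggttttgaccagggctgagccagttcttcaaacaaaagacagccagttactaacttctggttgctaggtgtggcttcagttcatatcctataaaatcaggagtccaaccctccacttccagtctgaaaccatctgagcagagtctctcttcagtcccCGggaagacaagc
Anxa8: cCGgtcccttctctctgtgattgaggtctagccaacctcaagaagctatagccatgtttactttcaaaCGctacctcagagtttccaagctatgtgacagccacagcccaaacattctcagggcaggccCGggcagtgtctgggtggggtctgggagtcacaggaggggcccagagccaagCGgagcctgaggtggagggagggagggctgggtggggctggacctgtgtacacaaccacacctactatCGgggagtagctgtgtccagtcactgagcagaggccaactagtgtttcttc
Anxa4: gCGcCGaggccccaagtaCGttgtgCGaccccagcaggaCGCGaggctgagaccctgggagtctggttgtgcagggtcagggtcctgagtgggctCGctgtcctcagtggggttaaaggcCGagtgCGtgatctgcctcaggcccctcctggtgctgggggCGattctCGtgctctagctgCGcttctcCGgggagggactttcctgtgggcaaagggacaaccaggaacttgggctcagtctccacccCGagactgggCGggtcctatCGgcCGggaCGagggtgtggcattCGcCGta
Anxa2: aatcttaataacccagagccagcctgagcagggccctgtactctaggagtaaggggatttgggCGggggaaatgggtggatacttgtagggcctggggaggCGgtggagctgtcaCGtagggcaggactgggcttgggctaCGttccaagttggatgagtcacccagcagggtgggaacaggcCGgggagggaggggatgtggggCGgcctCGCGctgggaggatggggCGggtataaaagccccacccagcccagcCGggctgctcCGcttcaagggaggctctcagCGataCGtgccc

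The S100a7a and S100a16 windows hold 2 CG dinucleotides each, fewer than most promoters (14.12% of windows hold fewer). The windows of Anxa1, Anxa8 and Anxa4 hold 3, 5 and 20, and that of Anxa2 holds 13. Over the members with a window, the 5 that fell held 3 to 20 (median 5), the 2 that rose held 2 each and the 10 tested but not called held 2 to 25 (median 13.5). The counts of members that fell and of members not called overlapped over most of their range. For genes with several annotated starts the window nearest the 5′ end of the gene was taken, and the choice matters: other windows hold 3 instead of 20 for Anxa4, 19 instead of 4 for Anxa7, 4 instead of 2 for S100a16 and 36 instead of 3 for Anxa9. Both strands were also searched for TATAAA, which lies in the windows of Anxa1, Anxa2, S100a4 and S100a8 and in 13.62% of all windows. The AP-1 motif TGANTCA lies once in the Anxa2 window, 2 times in that of S100a11 and in 7.808% of all windows. These are matches of letters only, and methylation of these sites was not analysed here.

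Annexin transcripts were lower in Hypo. Of the 10 annexins tested, 6 fell (Anxa1, Anxa3, Anxa4, Anxa6, Anxa7 and Anxa8), 0 rose and 4 did not pass, where 22.8% of all tested genes were called, 8.75% lower and 14.1% higher. Falls were more frequent among abundant genes: of genes that averaged 1000 or more normalized counts, as every tested annexin but Anxa9 did, 15.1% were called lower and 5.79% higher. The difference was negative for 9 of the 10, with a median of -0.18 against 0.0035 over all tested genes. In each of the 6 genes called, all 4 Hypo libraries lay below all 4 Ctrl libraries, which was so for 10.3% of all tested genes. Neither that share nor the median was taken over abundant genes alone, where falls were more frequent. Summed over the family, annexin transcripts made up 0.457% ± 0.0035 (SD, n = 4) of all normalized counts in Ctrl and 0.414% ± 0.021 (SD, n = 4) in Hypo, with ranges of 0.453 to 0.460 and 0.387 to 0.438 that did not overlap. The sum weighs the most abundant annexins most: Anxa1 had means of 45765 in Ctrl and 33718 in Hypo, and Anxa2 of 41484 and 41525. Without Ctrl replicate 3 the same count of 6 annexins fell. Quantile normalization gave 3 annexins lower, beside 12.5% of all tested genes. With the replicate number added to the model as a block, 2 annexins were lower, beside 2.04% of all tested genes. That block compares only replicates 2, 3 and 4 of each group.

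**Figure D1:**
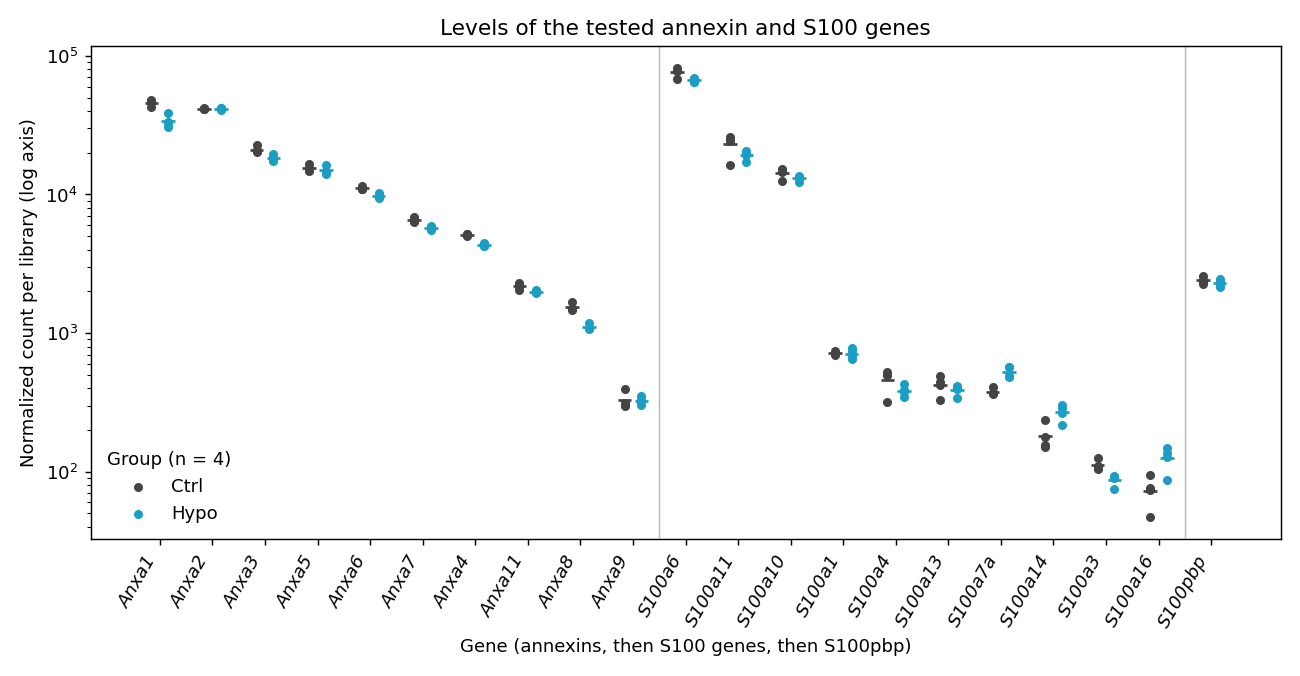
Normalized counts of the 21 tested members in each library on a log axis, 10 annexins first, then 10 S100 genes and S100pbp. Points are libraries (4 Ctrl, 4 Hypo) and short bars are group means. The Hypo points of Anxa1 (30643 to 38512) lie below its Ctrl points (42721 to 47763), those of Anxa2 coincide, and those of S100a7a (479 to 570.5) lie above its Ctrl points (362 to 408).

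Anxa1, a glucocorticoid-inducible protein that dampens inflammation through formyl peptide receptors, was among the annexins with the strongest decrease. Its normalized counts were 46170, 46407, 42721 and 47763 in Ctrl (replicates 1 to 4, the order kept below) and 32607, 33109, 38512 and 30643 in Hypo (replicates 2 to 5). The Hypo libraries were all lower, with replicate 4 nearest to Ctrl. The group means were 45765 ± 2147 and 33718 ± 3369 (SD, n = 4 each), 1.36 times higher in Ctrl (difference -0.44 ± 0.07 SE, limma adjusted p = 6.1e-04). The gene lies on chromosome 19 (GRCm38, 20373428 to 20390944) and overlaps 1500015L24Rik on the other strand, whose reads may not be separable, since no source used here says whether counting used strand.

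Anxa8, an annexin found on late endosomes, fell to a similar degree at a much lower level. Which of Anxa1 and Anxa8 fell more depended on the scale, with Anxa1 ahead on the transformed scale and Anxa8 in the ratio of means. Counts were 1486, 1501, 1673 and 1458 in Ctrl and 1085, 1090, 1188 and 1071 in Hypo. The groups were far apart relative to their spread (1529 ± 97.3 and 1108.5 ± 53.7, 1.38 times higher in Ctrl, difference -0.39 ± 0.05, limma adjusted p = 2.5e-04). Anxa8 lies on chromosome 14 (34085981 to 34100571) and overlaps A630023A22Rik on the other strand. Anxa1 and Anxa8 were the only members called under all 23 alternative analyses.

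The other 4 annexins that fell did so by smaller and similar amounts. Anxa4, which gathers membranes in secretory epithelia, was at 5175, 5139, 5048 and 5200 in Ctrl and 4280, 4402, 4452 and 4283 in Hypo, 1.18 times higher in Ctrl (difference -0.23 ± 0.04, adjusted p = 0.0013 by limma). It overlaps Gm44036 on the other strand. Anxa6, built from a duplicated annexin core and active in membrane repair and endosomal cholesterol traffic, was at 10953, 11004, 11036 and 11524 in Ctrl and 10250, 9823, 9364 and 9594 in Hypo (1.14 times higher in Ctrl, difference -0.19 ± 0.04, limma adjusted p = 0.0092). Anxa7, also called synexin and known for membrane fusion in secretion, was at 6364, 6389, 6847 and 6523 in Ctrl and 5863, 5601, 5938 and 5570 in Hypo (1.14 times higher in Ctrl, difference -0.18 ± 0.04, limma adjusted p = 0.012). Anxa3, a myeloid and epithelial annexin, was at 20846, 20164, 22570 and 20671 in Ctrl and 18208, 18332, 19522 and 17496 in Hypo (1.15 times higher in Ctrl, difference -0.19 ± 0.05, limma adjusted p = 0.017). The spread within each of these groups was narrow, so that a difference of this size left a gap between the groups. Under quantile normalization Anxa3, Anxa6 and Anxa7 kept the sign and missed the threshold (adjusted p = 0.14, 0.074 and 0.10 by limma). Under the replicate block Anxa3, Anxa4, Anxa6 and Anxa7 all kept the sign and missed it (limma adjusted p = 0.20, 0.080, 0.16 and 0.17).

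Anxa2, the partner of S100A10, was equal between the groups within its spread. Its counts were 41526, 41099, 41211 and 42101 in Ctrl and 41770, 41565, 41883 and 40884 in Hypo, and the means of 41484 ± 449 and 41525 ± 447 gave a difference of 0.0014 ± 0.04 (limma adjusted p = 0.98). In normalized counts, which are not corrected for mRNA length, Anxa1 lay above Anxa2 in every Ctrl library and below it in every Hypo library. Anxa5, the phosphatidylserine binder used to stain dying cells, had means of 15399 ± 796 and 14978 ± 947 (difference -0.04 ± 0.06, limma adjusted p = 0.65). Anxa9, an annexin with altered calcium sites, had 329 ± 45.7 and 325 ± 22 (difference -0.01 ± 0.07, limma adjusted p = 0.95). Anxa11, which binds S100A6 and tethers RNA granules to lysosomes, was at 2048, 2142, 2298 and 2264 in Ctrl and 2049, 1933, 1983 and 1962 in Hypo. The groups overlapped there in 1 library of each, and the difference of -0.13 ± 0.05 did not pass (limma adjusted p = 0.077). Anxa13 was below the minimum count, with means of 1.86 and 2.58, and Anxa10 was not analysed here.

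**Figure D2:**
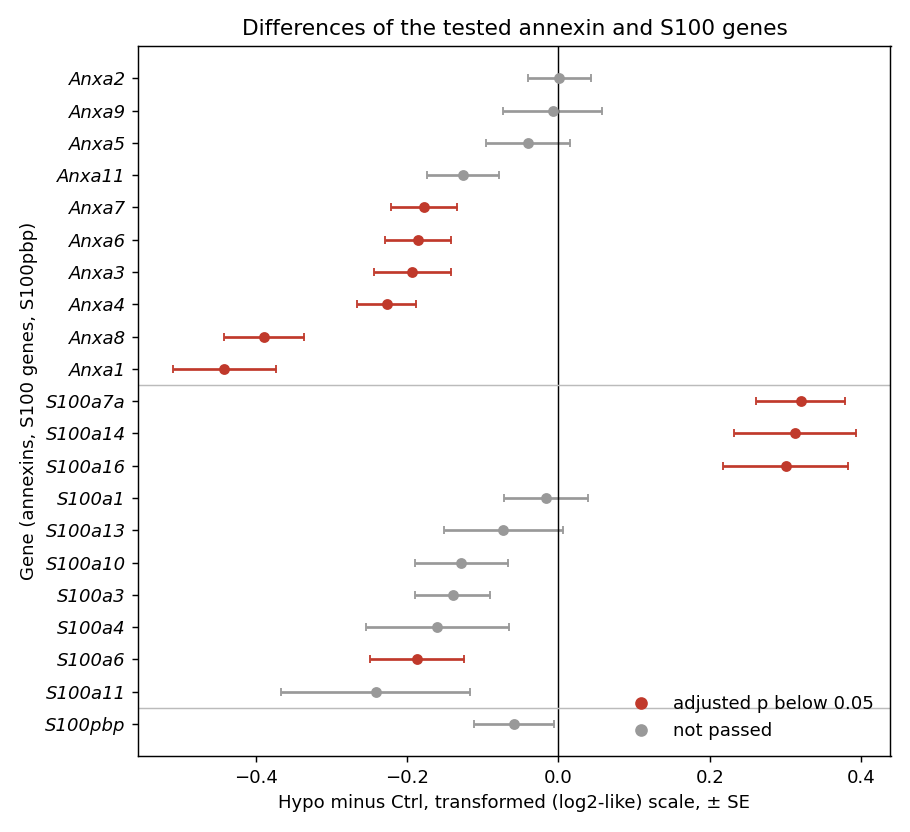
Hypo minus Ctrl for each of the 21 tested members on the transformed, log2-like scale, with bars of 1 SE (n = 4 libraries per group). Red points passed an adjusted p of 0.05 by limma and grey points did not: the 6 called annexins lie between -0.44 and -0.18, while S100a7a, S100a14 and S100a16 lie at 0.30 to 0.32.

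The S100 genes split. Of 10 tested, 3 scarce genes rose (S100a7a, S100a14 and S100a16), 1 abundant gene fell (S100a6) and 6 did not pass, beside the 14.1% of all tested genes called higher and 8.75% called lower. The median difference was -0.10 and 7 of the 10 were negative. S100 transcripts as a whole made up 0.352% ± 0.033 (SD, n = 4) of all normalized counts in Ctrl and 0.318% ± 0.0097 in Hypo, and the ranges (0.302 to 0.375 and 0.306 to 0.329) overlapped through Ctrl replicate 3, the lowest library.

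S100a7a, a mouse relative of the psoriasin genes of inflamed skin, was the only S100 gene with every Hypo library above every Ctrl library, which was so for 15.4% of all tested genes. Counts were 371, 369, 408 and 362 in Ctrl and 479, 490, 565 and 570.5 in Hypo. The means were 377 ± 20.5 and 526 ± 48.3, 1.39 times higher in Hypo (difference 0.32 ± 0.06, limma adjusted p = 0.0019). With the replicate number added to the model as a block, S100a7a kept the sign and missed the threshold (limma adjusted p = 0.067). That block compares only replicates 2, 3 and 4 of each group. The gene lies on chromosome 3 (GRCm38, 90654017 to 90658669), in the S100 cluster.

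S100a14 and S100a16, neighbours in the same cluster that encode S100 proteins of epithelia and of many tissues, also rose. S100a14 was at 151, 156, 235 and 179 in Ctrl and 266, 303, 286 and 217 in Hypo, so that Hypo replicate 5 lay below Ctrl replicate 3. It was 1.49 times higher in Hypo (180 ± 38.5 and 268 ± 37.1, difference 0.31 ± 0.08, limma adjusted p = 0.015). S100a16 was at 47.1, 76.5, 95.1 and 73.5 in Ctrl and 128, 148, 137 and 86.6 in Hypo, with the same single overlap. It was 1.71 times higher in Hypo (73.1 ± 19.7 and 125 ± 26.7, difference 0.30 ± 0.08, limma adjusted p = 0.021). Both calls were near the threshold: S100a14 missed it when Ctrl replicate 1 or 2 or Hypo replicate 3 was left out (limma adjusted p = 0.053, 0.053 and 0.056). S100a16 missed it without Ctrl replicate 1 or Hypo replicate 2, 3 or 4 (limma adjusted p = 0.063, 0.057, 0.071 and 0.0505). Under quantile normalization both kept the sign and missed the threshold, with differences of 0.21 for S100a14 and 0.17 for S100a16 (limma adjusted p = 0.077 and 0.15).

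A further set of S100 genes had 3 Ctrl libraries above all Hypo libraries, and for most of them Ctrl replicate 3 decided whether they passed. That library was the lowest Ctrl library for these genes and was set apart by a list chosen after the data were seen. Leaving it out favours a lower adjusted p, so the values without it, here and below, are not separate evidence of a fall. S100a6, or calcyclin, a stress-responsive S100 protein that binds annexins and the ubiquitin ligase adaptor Cacybp, was at 81217, 77742, 67560 and 78088 in Ctrl and 65111, 68785, 64578 and 68516 in Hypo. It was 1.14 times higher in Ctrl (76152 ± 5937 and 66748 ± 2211, difference -0.19 ± 0.06, limma adjusted p = 0.048), with Ctrl replicate 3 inside the Hypo range. The call was lost without any library other than Ctrl replicate 3 (limma adjusted p = 0.16 without Ctrl replicate 1, 0.11 without replicate 2 and 0.11 without replicate 4, then 0.12, 0.078, 0.10 and 0.060 as each Hypo library was left out in turn). Without Ctrl replicate 3 the adjusted p was 0.0032 by limma and the difference -0.24 ± 0.05.

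S100a11, or calgizzarin, the partner of annexin A1, was at 25627, 24333, 16301 and 25804 in Ctrl and 17094, 19453, 19413 and 20627 in Hypo. Ctrl replicate 3 was the lowest of the 8 libraries, at 64.5% of the mean of the other Ctrl libraries, which were all above Hypo. With all libraries the difference of -0.24 ± 0.12 did not pass (limma adjusted p = 0.19), and without Ctrl replicate 3 it was -0.40 ± 0.06 (limma adjusted p = 3.1e-04), 1.32 times higher in Ctrl. S100a4, or metastasin, which binds nonmuscle myosin and is known for its part in mouse mammary metastasis, followed the same order with 520.5, 501, 320 and 495 in Ctrl and 345, 386, 430 and 375 in Hypo. Its difference was -0.16 ± 0.09 with all libraries (limma adjusted p = 0.25) and -0.27 ± 0.06 without Ctrl replicate 3 (limma adjusted p = 0.0043), again 1.32 times higher in Ctrl. The annotated span of S100a4 overlaps Gm42674 on the same strand, and reads of the overlap may not be separable. S100a10, the light chain of the annexin A2 complex, was at 14584, 14841, 12534 and 15343 in Ctrl and 12378, 13095, 13526 and 13211 in Hypo. Its difference was -0.13 ± 0.06 with all libraries (limma adjusted p = 0.16) and -0.19 ± 0.05 without Ctrl replicate 3 (limma adjusted p = 0.0071). S100a13, which takes part in the release of fibroblast growth factor, was at 423, 447, 331 and 494 in Ctrl and 340, 396, 407 and 418 in Hypo and did not pass with or without that library (limma adjusted p = 0.55 and 0.097).

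**Figure D3:**
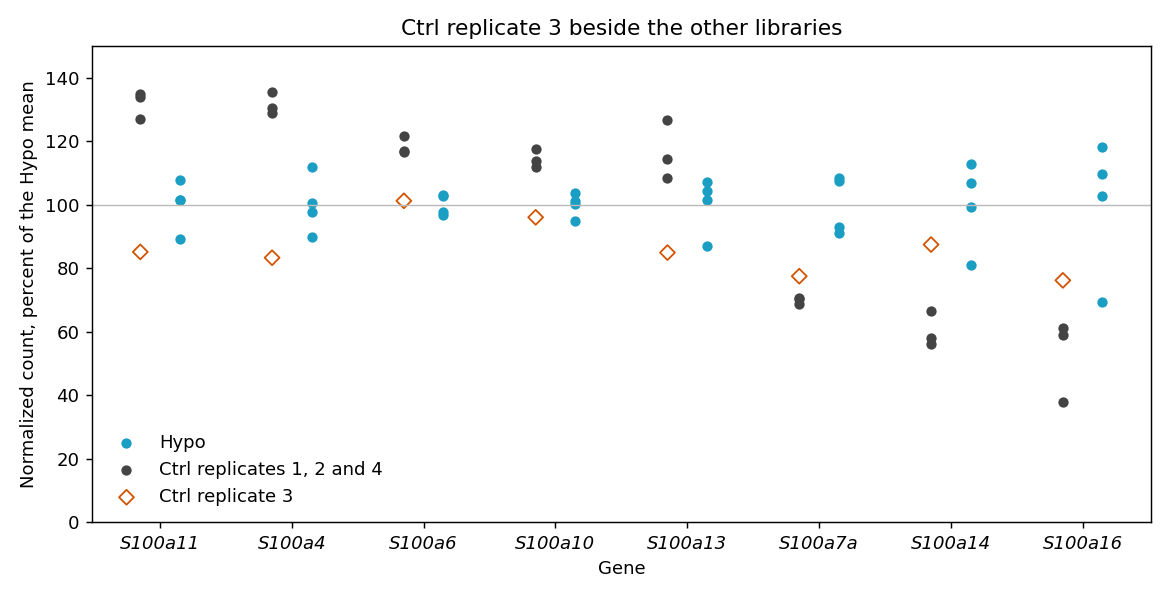
Normalized counts of 8 S100 genes in each library as percent of the Hypo mean of the gene, on an axis from 0. Open diamonds are Ctrl replicate 3, dark points the other 3 Ctrl libraries and blue points the 4 Hypo libraries. For S100a11 the diamond is at 85.1% while the other Ctrl libraries are at 127.1% to 134.8%.

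Among the tested S100 genes, the other 3 Ctrl libraries were all above all 4 Hypo libraries in S100a3, S100a4, S100a6, S100a10, S100a11 and S100a13. They were all below in S100a7a, S100a14 and S100a16. In S100a3 and S100a7a the gap also held with Ctrl replicate 3. The share of all tested genes with a gap of 3 against 4 libraries was not counted, so those gaps have no background to be read against. For 4 against 4 libraries, Hypo lay wholly below Ctrl in 10.3% of all tested genes and wholly above in 15.4%. Leaving out Ctrl replicate 3 made 4 S100 genes fall and 3 rise. Over all tested genes it gave 13.3% called lower and 17.4% higher, in place of 8.75% and 14.1%. The stress gene mean was highest in Ctrl replicate 3 among all libraries and in replicate 2 among the Hypo libraries, and S100a4, S100a10, S100a11 and S100a13 were each lowest within their group in those same libraries. S100a6 was lowest in Ctrl replicate 3 too, but among the Hypo libraries its lowest value was in replicate 4. S100a3 was lowest in Ctrl replicate 4 and in Hypo replicate 5. The part of the stress response in these levels was not tested.

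Of the remaining S100 genes, S100a1, a regulator of calcium cycling in heart muscle, was alike in both groups within its spread (719 ± 18.5 and 709.8 ± 59.0, limma adjusted p = 0.87). S100a3, a cysteine-rich protein of hair cuticle, was at 125, 106, 109.6 and 105 in Ctrl and 90.2, 92.6, 90.9 and 74.8 in Hypo. The groups did not overlap, yet the difference of -0.14 ± 0.05 did not pass (limma adjusted p = 0.062), and its annotated span overlaps S100a2 and other genes. S100pbp had 2400 ± 131 and 2294 ± 126 (difference -0.06 ± 0.05, limma adjusted p = 0.47). S100a8, which pairs with S100a9 as calprotectin in neutrophils, crossed a normalized count of 10: it was at 8.20, 9.56, 6.34 and 5.13 in Ctrl and 9.25, 7.86, 15.6 and 17.7 in Hypo. The groups overlapped, and with no minimum count it did not pass (adjusted p = 0.20 by limma, 0.18 by edgeR's quasi-likelihood test). S100a2, S100a5 and S100b had group means between 0.66 and 8.35 and did not pass either (limma and edgeR adjusted p of 0.14 to 0.83). S100a9, S100g and S100z were not analysed here.

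Levels were compared between genes as normalized count per kilobase of mRNA. S100a6 was highest in Ctrl (127450 ± 9937 per kilobase), followed by S100a11 (45042 ± 8855), Anxa2 (28669 ± 310), Anxa1 (27770 ± 1303), S100a10 (24656 ± 2126) and Anxa3 (13830 ± 687). Anxa2 and Anxa1 did not differ beyond their spread, whereas S100a6 and S100a11 were far apart. The 3 S100 genes that rose were near the bottom of the order, at 295 per kilobase for S100a7a, 197 for S100a14 and 80.95 for S100a16. In Hypo S100a6 (111712 ± 3700), S100a11 (37469 ± 2895) and Anxa2 (28698 ± 309) kept their places, and S100a10 (22466 ± 835) moved past Anxa1 (20460 ± 2044). The gap between S100a10 and Anxa1 in Hypo was about the size of their spread.

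The S100a genes lie together on chromosome 3 (GRCm38, 90511034 to 93564643) in the epidermal differentiation complex. This span holds 121 annotated genes, 13 of them members and 10 of those tested. The members that rose and fell were interleaved: S100a14 and S100a16, which rose, lie before S100a6, which fell, and S100a7a, which rose, lies just after it. This order rests on S100a6 as the only member of the span that fell, near the threshold (limma adjusted p = 0.048). Its call was lost when any library other than Ctrl replicate 3 was left out. Among the 108 other genes of the span only 7 passed the minimum count. Over all tested genes 14.1% were called higher and 8.75% lower, and 7 genes are too few to compare with those shares. Of the 7, 0 rose and 2 fell in the limma test, both late cornified envelope genes of the skin barrier. Lce1g had means of 199.6 and 65.6 (difference -0.64 ± 0.14, limma adjusted p = 0.0051) and Lce1f of 40.04 and 16.7 (-0.26 ± 0.08, limma adjusted p = 0.040).

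Genes whose products work with annexins and S100 proteins were counted in 7 lists. They held 122 genes, of which 88 were tested, 20 rose and 12 fell, beside 14.1% of all tested genes called higher and 8.75% lower (15.1% lower among the abundant genes above). Of the 20 that rose, 4 had a Ctrl mean under 10 and were tested only through Hypo, and with a minimum count of 50 the number that rose was 13. The receptors for extracellular S100 proteins and annexins held 2 that fell of 4 tested. Tlr4, the endotoxin receptor that also senses S100A8, had 1244 ± 54.9 in Ctrl and 999 ± 114 in Hypo (limma adjusted p = 0.014), and Alcam, an adhesion molecule that binds S100B, had 2598 ± 91.1 and 2268 ± 171 (limma adjusted p = 0.032). Ager, the RAGE receptor, was scarce (21.6 and 28.6, limma adjusted p = 0.26) and Bsg abundant and level (11973 and 12093, limma adjusted p = 0.84). The formyl peptide receptors Fpr1 and Fpr2, through which annexin A1 acts, had group means of 1.13 to 3.48, below the minimum count.

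Intracellular targets of S100 proteins included 5 that fell and 1 that rose of 19 tested. Over all tested genes 8.75% were called lower and 14.1% higher. Among genes averaging 1000 or more normalized counts, as these targets did, 15.1% were lower and 5.79% higher. Ahnak, the giant scaffold that S100A10 and annexin A2 hold at the plasma membrane, had 116260 ± 2625 in Ctrl and 87910 ± 1850 in Hypo (1.32 times higher in Ctrl, difference -0.40 ± 0.05, limma adjusted p = 7.3e-05). Myh14, a nonmuscle myosin heavy chain, was 1.26 times higher in Ctrl (limma adjusted p = 0.0098), and the actin capping subunit Capzb 1.15 times (limma adjusted p = 0.0040). Mdm2, the ubiquitin ligase of p53, rose from 1872 ± 43.3 to 2334 ± 109 (limma adjusted p = 8.5e-04). In the plasminogen system, which the annexin A2 complex assembles, 3 of 6 tested rose and 0 fell. Plat, tissue plasminogen activator, was 1.44 times higher in Hypo (1061 ± 201 and 1524 ± 154, limma adjusted p = 0.0070), the receptor gene Plgrkt 1.12 times (limma adjusted p = 0.0498), and Serpine2, an inhibitor of such proteases, rose from 471 ± 43.3 to 613 ± 22 (limma adjusted p = 0.0045). Plau and Plaur, the urokinase gene and that of its receptor, did not pass (limma adjusted p = 0.43 and 0.72).

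Annexin partners in membrane repair and traffic moved both ways, with 4 that rose and 5 that fell of 18 tested. The shares over all tested genes were 14.1% higher and 8.75% lower. Mical1, an actin oxidase of vesicle traffic, went from 0.858 ± 1.21 to 127 ± 26.4 normalized counts (limma adjusted p = 1.1e-07) and Dysf, the dysferlin gene of membrane repair, from 9.31 ± 4.21 to 42.4 ± 3.87 (limma adjusted p = 6.6e-05). Both had a Ctrl mean under 10 and so were tested only through their Hypo level. The calcium-binding adaptor Pef1 (1411 and 1198, limma adjusted p = 0.011) and talin, Tln1 (21639 and 17981, limma adjusted p = 0.014), fell. Other EF-hand genes, which share the calcium-binding fold of the S100 proteins, had 6 that rose and 0 that fell of 23 tested. Membrane binders with a C2 domain had 6 and 0 of 17, again beside 14.1% higher and 8.75% lower over all tested genes. Esyt3, a lipid transfer protein at membrane contacts, was 1.72 times higher in Hypo (428 ± 30.8 and 735 ± 78.0, limma adjusted p = 8.1e-05). Rcn3, a calcium binder of the secretory pathway, went from 24.1 ± 8.76 to 77.3 ± 15.9 (limma adjusted p = 4.8e-04). Of the 12 that rose in these lists, Tesc and Cpne7 had a Ctrl mean under 10.

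**Figure D4:**
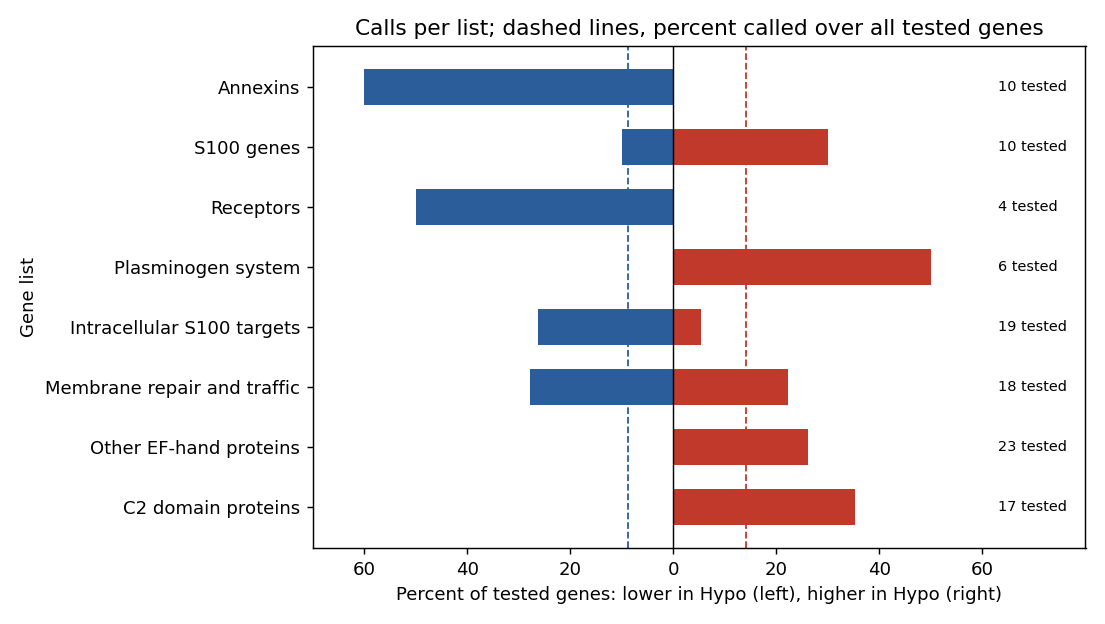
Percent of the tested genes of each list called lower (blue, left) or higher (red, right) in Hypo by limma, with the number tested at the right. Dashed lines mark 8.75% and 14.1%, the percent of all tested genes called lower and higher: 60% of the annexins were called lower, and 30% of the S100 genes higher.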

How the data were processed

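Polyadenylated RNA of 4T1 cells was sequenced as stranded paired-end libraries, and per the study's methods reads were trimmed and aligned and counted with STAR on GRCm38. The submitters' notes also name bcl2fastq, HTSeq and DESeq2. The sample titles gave the groups and replicate numbers. Separate cultures are not stated for the libraries of a group, and p-values therefore reflect only how these samples spread, possibly for technical reasons. The authors deposited normalized counts for 23606 genes, a signal made by dividing reads by a size factor, and variance-stabilized values on a log2-like scale for 27336 genes, with 23215 in both. Their fold change and p-value columns were not used. Normalized counts were whole multiples of 1 read's worth in 100% of values (tolerance 0.01), so reads were recovered, which gives the depth. Depth covers counting error only.

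Each gene was tested with limma 3.58.1 in R 4.3.3 (empirical Bayes moderation with a mean trend, two-sided, adjusted by Benjamini-Hochberg) on the deposited transformed values of genes averaging 10 or more normalized counts. The transformation compresses differences of low genes. Alternatives were a minimum of 50 or none, leaving out libraries, a replicate block, array weights, other scalings, a log2 scale with a pseudocount of 1 or 5, and edgeR 4.0.16 and DESeq2 1.42.0 on recovered reads. The fits were tested on simulated data. Folds are ratios of group means. Positions come from the GENCODE annotation of GRCm38, and mRNA length is the median of its basic protein-coding transcripts. Members and lists were chosen with earlier results of these data known. Values per library are given for called members, the 6 members highest per kilobase and those crossing a mean of 10 between groups. S100a3, S100a4 and S100a13 were given in the same way after their values were seen. Of each partner list at most 4 called genes by smallest p were named, plus the receptors, and 1 listed gene is not reported here.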

Additional observations from a re-analysis of the deposited data

Results flagged for a closer look

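Among 42 groups of 4 libraries checked (21 members in 2 groups), 6 held a library whose gap to its nearest neighbour exceeded Dixon's 95% critical share of the range of the group, where chance gives about 1 group in 20. The libraries far from the rest were Ctrl replicate 3 in S100a11 (16301 normalized counts), S100a4 (320) and Anxa9 (397), Ctrl replicate 4 in Anxa6 (11524), Hypo replicate 4 in Anxa8 (1188) and Hypo replicate 5 in S100a3 (74.8). S100a11 and S100a4 were low in Ctrl replicate 3 and Anxa9 was high there, the library with the highest stress gene mean. In Anxa6 and Anxa8 the library stood apart from its own group, and Ctrl and Hypo did not overlap.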

How the results depend on the processing

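Over 23 alternatives for 21 members, 415 of 483 values kept their direction and their side of the threshold, 33 lost the call, 16 gained one and 19 changed sign. The sign changes were in 4 members near 0, none of them called. Anxa2 became negative when any of Ctrl replicates 2 and 3 and Hypo replicates 2 and 4 was dropped (range over single libraries left out -0.0030 to 0.0088), -0.0058 without both Ctrl replicate 3 and Hypo replicate 4, -0.0099 with median centering, -0.012 with GC and length trends removed, -0.0039 and -0.025 by edgeR with and without the minimum count and -0.010 by DESeq2. Anxa5 became 0.013 under quantile normalization. Anxa9 became positive without Ctrl replicate 3 or Hypo replicate 4 or 5 (range -0.034 to 0.051), 0.072 without both libraries and 0.046 with array weights. S100a1 became positive without Hypo replicate 3 or 5 (range -0.052 to 0.012) and 0.013 under the replicate block. Leaving out single libraries gave 1 to 3 members higher (all S100 genes), with 1 when Ctrl replicate 1 or Hypo replicate 3 was left out, and 6 to 10 members lower. Of S100 genes, 0 to 4 were lower, with 4 without Ctrl replicate 3 and 0 without any other single library, and 6 annexins were lower each time. Partner genes lower went from 12 to between 6 and 17, with 6 without Ctrl replicate 1 or Ctrl replicate 4, and 7 without Hypo replicate 3. Without both Ctrl replicate 3 and Hypo replicate 4, 4 S100 genes were lower. Quantile normalization gave 1 member higher, an S100 gene, and 4 lower, of which 3 were annexins. Over all tested genes it gave 11.5% higher and 12.5% lower, in place of 14.1% and 8.75%. Median centering gave 2 S100 genes lower and log2 of the normalized count plus 5 gave 0. Array weights gave 12 members lower, 5 of them S100 genes, and 22 partner genes lower. A minimum count of 50 gave 13 partner genes higher in place of 20. Correlations of deviations were -0.11, -0.21 and -0.17 for the replicate numbers 2, 3 and 4 shared by Ctrl and Hypo. Taken in order instead (Ctrl 1 with Hypo 2, 2 with 3, 3 with 4 and 4 with 5) they were -0.21, 0.20, 0.40 and 0.52. These values cannot settle whether the libraries were paired. Ctrl replicate 1 and Hypo replicate 5 share their number with no library of the other group. A replicate block thus compares only replicates 2, 3 and 4 of each group. It gave 2 members lower, both annexins (Anxa1 and Anxa8), 0 S100 genes lower, and 11 partner genes higher and 2 lower. It gave 2 members higher, S100a14 and S100a16 (limma adjusted p = 0.031 and 0.023), while S100a7a lost its call (0.067). Over all tested genes it gave 8.15% higher and 2.04% lower. With GC and length trends removed as well, the block gave 2 members lower, 2 annexins and 0 S100 genes, and 12 partner genes higher and 2 lower. The causes of these differences were not tested. Genes below a mean count of 10 could show only large changes at this depth.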
